A study of Drosophila melanogaster with 12 samples.

Results

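The actin genes of Drosophila melanogaster were followed in a table of transcript 3′ ends from adult fly heads. The members were the 6 genes that encode actin itself, Act5C (FBgn0000042), Act42A (FBgn0000043), Act57B (FBgn0000044), Act79B (FBgn0000045), Act87E (FBgn0000046) and Act88F (FBgn0000047). They were chosen by gene identifier, and every entry of the table that named one of them was kept. All 6 were found, in 26 of 32302 entries and among 9576 genes named. The entries formed 23 clusters, which are short stretches of neighbouring bases where reads ended, out of 30878 in the table. The libraries came from UV-cross-linked head powder of adult flies, in 4 groups of 3 each: pum input, pum IP, w118 input and w118 IP. In the pum flies the endogenous Pumilio protein (Pum) carried a C-terminal Flag-HA tag, and in the w118 flies it was untagged. Input is the RNA before, and IP the RNA after, purification with an anti-Flag antibody. The tag sat on the gene's own locus, so the IP could draw on any head cell that expressed Pum. Which cell types did so was not measured here.

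The 12 count columns of the table carry no library name. Each count below is therefore the sum over all 12 libraries, termed pooled reads, and mixes input with IP and tagged with untagged flies. A pooled sum is not a level in the head, since the IP libraries do not sample all head RNA alike. No replicate error and no test between groups could be given, and intervals cover counting error only. In these bulk samples fewer cells of a type and less RNA per cell cannot be told apart.

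Actin is the globular protein that assembles into microfilaments. Fly actin genes fall into a cytoplasmic class, Act5C and Act42A, which serves cell shape, transport and division in most cells, and a muscle class, which builds the thin filaments of the sarcomere. Within the muscle class, Act57B and Act87E are known for larval body wall muscle and also for adult muscle, Act79B for the tubular muscles of the thorax, legs and abdomen, and Act88F for the indirect flight muscles of the thorax. Pum is an RNA-binding protein that recognises the Pumilio response element in 3′ untranslated regions (3′ UTRs) and represses its targets.

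With overlapping entries of the same genes joined and the larger sum kept, the clusters held 119300828 pooled reads. Of these, 15.05% lay on the ribosomal DNA scaffold. Outside it lay 101347405 reads. Of the genes named, 80 identifiers were not in the annotation used and have no rank. Among 9008 protein-coding genes named that were in it, the median was 1778 pooled reads. Of 12 marker genes set for cell types of the head samples, 11 lay above this median. The arrestin gene Arr2 of photoreceptors had the most reads of any protein-coding gene, with 1514215. The yolk protein gene Yp1 of female fat body and the rhodopsin gene ninaE had 481444 and 465493. The lowest of the 12 was Hml of haemocytes, with 1227 pooled reads, below the median. The 5 muscle markers Mlc2, Mhc, up, Mlc1 and wupA, all of them also on the sarcomere list described below, had between 2961 and 151896 reads, whereas 5 other genes of that list had 70 to 617 and 2 had no cluster.

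With overlapping entries joined, Act5C was the actin gene with the most pooled reads and Act88F the one with the fewest, 28.1-fold apart (95% interval 26.1 to 30.1, from the exact binomial interval of their split). With every entry counted, Act57B came first, with 25222 reads. That sum adds narrower entries to the wider ones that already cover the same bases. Because a read marks the end of a transcript, counts were not divided by transcript length. Act5C had 22359 pooled reads (exact Poisson 95% interval 22067 to 22654) and ranked 544 among protein-coding genes. Act57B followed with 13074 reads (12851 to 13300, rank 926) and Act87E with 10953 (10749 to 11160, rank 1104). These 3 genes lay 6.16 to 12.6 times above the median gene.

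The other 3 genes were near or below the median gene. Act79B had 2769 pooled reads (2667 to 2874, rank 3459), or 1.56 times the median. Act42A had 1291 (1222 to 1363, rank 5249) and Act88F had 797 (743 to 854, rank 6228), which were 0.726 and 0.448 times the median. The intervals of no 2 genes overlapped. The closest neighbours were Act57B and Act87E, at a ratio of 1.19 (1.16 to 1.22). Act57B stayed above Act87E however its overlapping entries were counted, with 12230 reads from the narrower entries alone.

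Pooled reads differed widely within each class. Act5C had 17.3 times the reads of Act42A (16.4 to 18.3), and Act57B had 16.4 times those of Act88F (15.3 to 17.6). The cytoplasmic class had 23650 pooled reads and the muscle class 27593. The cytoplasmic share of all 51243 actin reads was 46.2% (Wilson 95% interval 45.7 to 46.6). Act5C alone made up 43.6% of actin reads, Act57B 25.5% and Act87E 21.4%, while Act79B, Act42A and Act88F held 5.40%, 2.52% and 1.56%. All actin genes together gave 0.0506% of the reads outside the ribosomal DNA scaffold.

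The share depends on Act57B, and on how its entries are read. Every one of its 7 entries also named the small nucleolar RNA gene snoRNA:660 (FBgn0065059), which the annotation places inside the Act57B 3′ UTR, from base 36 to base 131 after the stop codon. All 7 entries ended beyond the snoRNA. In 3 places the table listed a narrower entry within a wider one with the names in the other order, and here only the wider entry, with the larger sum, was counted. Counting every entry adds the narrower entries, whose bases the wider ones already cover. It gave Act57B 25222 pooled reads, above Act5C, and lowered the cytoplasmic share to 37.3%. Leaving out entries with more than 1 gene name removed Act57B altogether and gave 62.0%.

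**Figure D1:**
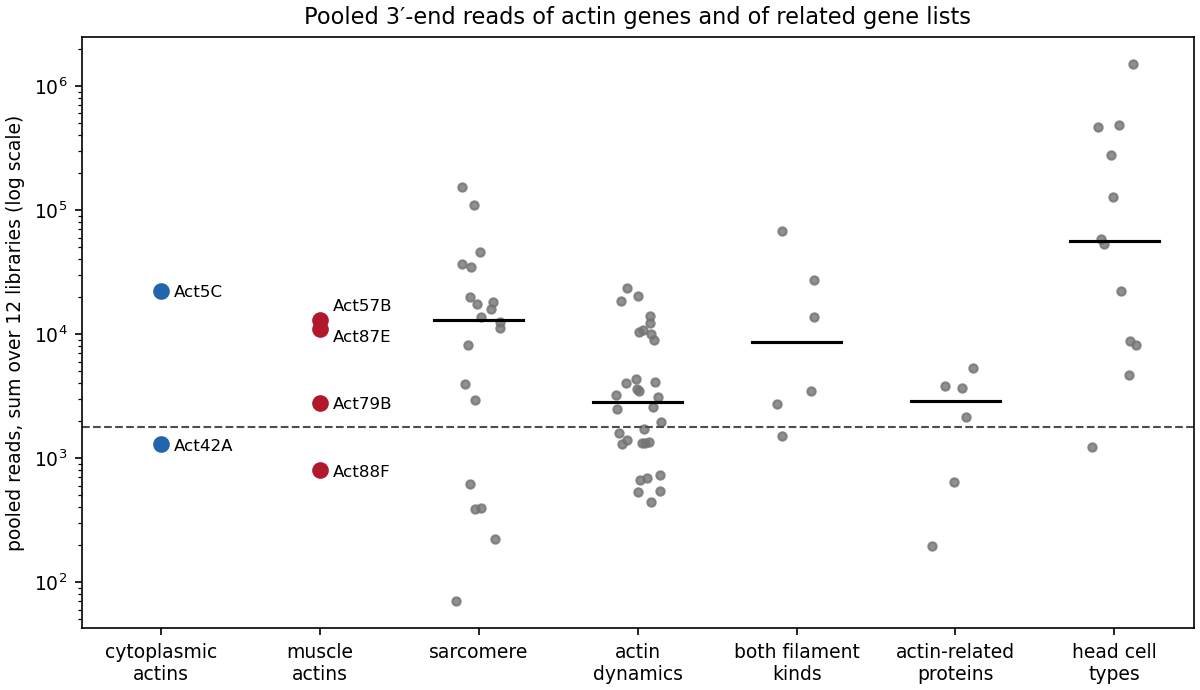
Pooled reads per gene, summed over 12 libraries, on a logarithmic axis, for the cytoplasmic actins (blue), the muscle actins (red) and 5 lists of other genes (grey points, 1 per gene with clusters, with black bars at the list medians). The dashed line is the median protein-coding gene at 1778 reads; Act5C, Act57B, Act87E and Act79B lie above it and Act42A and Act88F below.

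Genes that work with actin were set beside it. Of 22 sarcomere genes listed, 20 had clusters, with a median of 13076 pooled reads. Tm2, a muscle tropomyosin with 13646 reads, was the list gene closest to Act57B. The highest were Mlc2, a myosin light chain, with 151896 reads, Mlp60A, a LIM-domain protein of muscle, with 109993, and Mhc, the muscle myosin heavy chain, with 45593. Thus 5 of the 20 exceeded Act5C and 12 exceeded Act87E. Another 5 lay below Act88F. They were Unc-89 with 617 reads (matched through its current symbol Obsc) and 4 genes of troponin C, the calcium sensor of the thin filament: TpnC47D with 398, TpnC41C with 386, TpnC4 with 221 and TpnC73F with 70. The fifth troponin C gene on the list, TpnC25D, had 16024 reads, above Act57B. These 6 genes were singled out after their values were seen. Flightin (fln) and Zasp67 had no cluster.

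A list of genes of actin dynamics gave lower sums. It held regulators of actin assembly and turnover, and also other genes such as the membrane linker Moe and the myosin genes sqh and zip. All 32 genes of this list had clusters and their median was 2832.5 pooled reads, between Act79B and Act87E. The highest was tsr, the fly cofilin, with 23618 reads, followed by the membrane linker Moe with 20323 and the regulatory myosin light chain sqh with 18491. Only tsr exceeded Act5C, at 1.06 times its reads. Arpc4, a subunit of the Arp2/3 complex, was closest to Act87E with 10786 reads, its partner Arp2 was closest to Act42A with 1301, and the thymosin repeat protein cib was closest to Act88F with 731. The heavy chain of non-muscle myosin, zip, had 2571 reads, listed under an older identifier (FBgn0265434) and matched by position.

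A further 6 genes serve muscle and non-muscle filaments alike, and all had clusters. Tm1, a tropomyosin, had 67389 pooled reads, the giant nesprin Msp300 had 27403 and the Z-disc gene Zasp52 had 13813. DAAM, a formin, had 2736 and was the list gene closest to Act79B. Among 7 genes of actin-related proteins, 6 had clusters and none reached Act87E. Their highest sums were 5289 for Arp1 of dynactin, 3827 for Arp6 and 3677 for Arp10. The list gene closest to Act5C was brp, a scaffold of the presynaptic active zone in neurons, with 22327 reads. Closeness here is only that of 1 pooled sum per gene.

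Act5C (chrX:5900861-5905399, plus strand) ended in several places along its 3′ UTR, more than any other actin gene. Its 5 transcripts share 1 stop codon and are annotated to end 345, 636, 960, 1399 and 1571 bases after it. With clusters up to 50 bases apart joined and a minimum of 1% of the reads of the gene, 4 ends were in use. Among 9007 protein-coding genes with reads on the main chromosomes, 12.6% had 4 or more ends in use and 55.2% had 1. These shares were not matched for read depth, and Act5C had 22359 pooled reads against 1778 for the median gene. The leading end of Act5C, near base 637, held 13850 of 22359 reads, or 61.9% (Wilson 61.3 to 62.6). The long end near base 962 held 4314 reads (19.3%), the short end near base 345 held 2209 (9.88%), and an end near base 152, where no transcript is annotated to stop, held 1792 (8.01%). The main cluster of that last end was followed by 6 A among 10 genome bases, and internal priming there was not tested. A further 194 reads (0.868%) lay at base 487. No cluster lay within 50 bases of the ends annotated at 1399 and 1571. A cluster needed at least 6 reads at a peak in a single library, so rare use of these ends would not be listed. The same holds for minor ends of genes with few reads. The 30 bases up to the last base of the main cluster of each end, read from the reference genome (dm6, plus strand, 5′ to 3′, coordinates 1-based), are shown because the poly(A) signal is usually found in that window. Capitals mark a hexamer of the poly(A) signal family, and none of these windows held AATAAA or ATTAAA.
Act5C, base 152, 1521 reads, chrX:5903951-5903980: gtgcagcacaacaaaatcaacaacaacacc
Act5C, base 345, 1213 reads, chrX:5904144-5904173: cctttAATATAacaagaactacaaaaaatg
Act5C, base 637, 13742 reads, chrX:5904436-5904465: acaaaaatatgaaaacaaaaaggaaaatca
Act5C, base 962, 3527 reads, chrX:5904761-5904790: tgatgaAATGAAacaacaacaagcgaacaa

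The leading Act5C cluster (chrX:5904445-5904465) was 21 bases wide, a width that 2.41% of leading clusters of protein-coding genes reached, against a median of 4 bases. Widths were not matched for read depth, and this cluster held 13742 reads. The table gives no position of the most used base within a cluster. Distances to a hexamer were counted from its first base to the given base of the cluster, both included. By this count a TATAAA lay 25 bases before the first base of this cluster, base 617 after the stop codon, and 45 before the last. The 30 bases up to the first base show it in capitals.
Act5C, base 617, chrX:5904416-5904445: gtaatTATAAAcaaagtgaaacaaaaatat

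Act79B, Act87E and Act88F, of the muscle class, placed nearly all reads at similar distances, between 352 and 369 bases after the stop codon. The range was not that of the class, as the cytoplasmic Act42A ended at base 360. Act57B, also of the muscle class, ended mostly at bases 484 to 507. Act79B (chr3L:21985210-21987190, plus strand) had 2655 of its 2769 reads (95.9%, Wilson 95.1 to 96.6) at base 352, 5 bases past the annotated end, and 114 reads (4.12%) at base 177. Act87E (chr3R:13425983-13428375, plus strand) had a pair of clusters near its annotated end at 355, with 4284 reads (39.1%, 38.20 to 40.03) up to base 355 and 6599 (60.2%, 59.3 to 61.2) up to base 369, which is 14 bases past it. The remaining 70 reads lay at base 292. Another Act87E transcript is annotated to end at base 641, and no cluster lay there. Act88F (chr3R:15439969-15442177, plus strand) had 572 reads (71.8%, 68.5 to 74.8) at base 357 and 225 (28.2%, 25.2 to 31.5) at base 366, 13 and 4 bases short of its annotated end. Act79B, Act87E and Act88F each held AATAAA or ATTAAA before their leading cluster, shown in capitals, unlike Act5C. For the smaller Act87E cluster, up to base 355, the ATTAAA shown lay within the cluster, 9 bases before its last base. An AATAAA lay 22 bases before the first base of that cluster, outside the window shown.
Act79B, base 352, 2655 reads, chr3L:21987166-21987195: acAATAAAaaccaataacccatgtgaatcg
Act87E, base 355, 4284 reads, chr3R:13428060-13428089: ttatactagcatcctctataaATTAAAtct
Act87E, base 369, 6599 reads, chr3R:13428074-13428103: tctataaATTAAAtctaaattttaaacgaa
Act88F, base 357, 572 reads, chr3R:15442135-15442164: aagccaaatatatcttccATTAAAactatt
Act88F, base 366, 225 reads, chr3R:15442144-15442173: atatcttccATTAAAactATTAAAtatttt

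**Figure D2:**
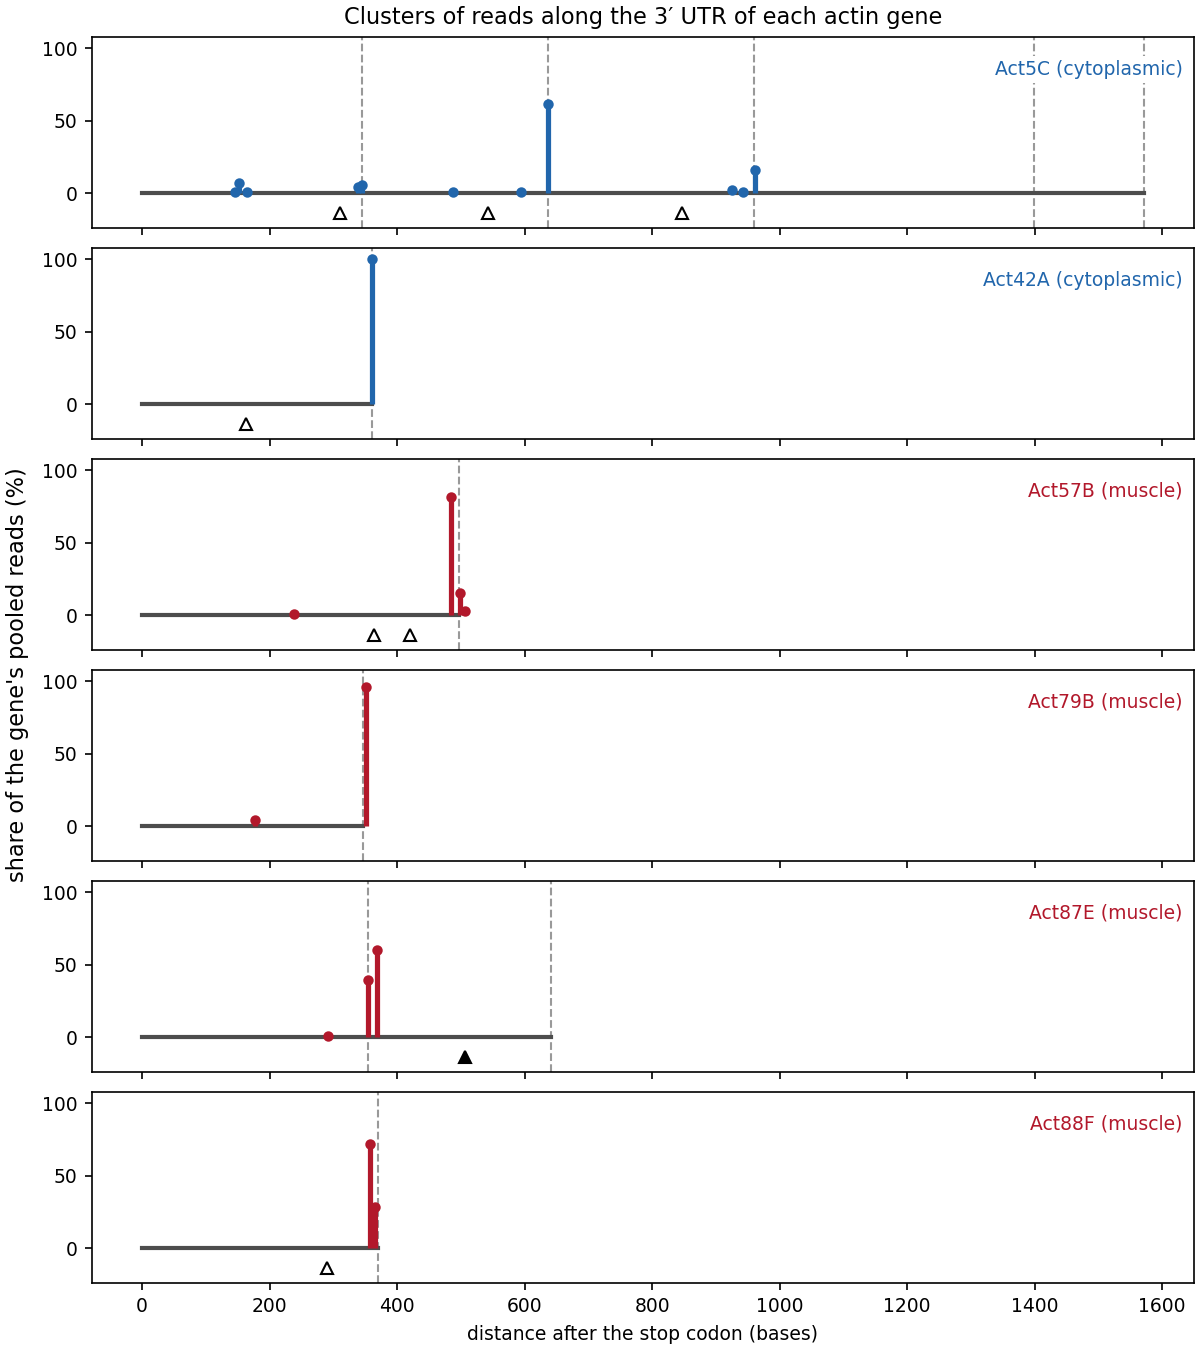
Share of the pooled reads of each actin gene (vertical axis, percent) at each cluster (stems), against the distance of the last base of the cluster after the stop codon (horizontal axis, bases). The thick line is the longest annotated 3′ UTR, dashed lines are annotated transcript ends, open triangles are matches to the short core of the Pumilio response element and the filled triangle is the complete element; Act5C has 4 ends in use, the other genes 1 or 2, and the filled triangle of Act87E at base 507 lies beyond its last cluster at base 369.

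Of the members on chromosome arm 2R, Act42A (chr2R:6013910-6015689, minus strand) had the simplest pattern. All 1291 reads fell in 1 cluster of 2 bases at the annotated end, 360 bases after the stop codon. Act57B (chr2R:20944021-20946431, plus strand) had 12992 of 13074 reads (99.4%, Wilson 99.2 to 99.5) in 3 neighbouring clusters at bases 484, 499 and 507, around its annotated end at 497. The first of these was the main one, with 10680 reads. A nested entry of 6 bases, ending at base 477, already held 10210 reads. The AATAAA of Act57B starts at base 475 and so lay inside that cluster, while an ATTAAA started at base 449, 29 bases before the last base of the nested entry with both bases included. The remaining 82 reads lay at base 238, outside the snoRNA.

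With each cluster placed at its last base, the mean 3′ UTR length weighted by reads was 629 bases for Act5C and 485 for Act57B. For the other 4 genes it was 345 to 363 bases. Reads within 50 bases of an annotated end made up 95.6% of all actin reads (Wilson 95.4 to 95.8), 91.6% in the cytoplasmic class and 99.0% in the muscle class. Act42A, with 100%, was not part of the shortfall of its class, which came from Act5C with 91.1% (90.7 to 91.5). The median protein-coding gene had 100% of its reads at annotated ends. Within 10 to 40 bases before the last base of the leading cluster, 5 of the 6 genes had AATAAA or ATTAAA, all but Act5C. Among 9007 protein-coding genes 66.2% had one there, and 90.4% had any of 12 hexamers of the signal family within 50 bases. By that wider search Act5C had one too, the TATAAA given above, and a smaller cluster of its long end, at base 926 with 544 reads, had an ATTAAA 23 bases upstream. A match is a description of the sequence and not a measured use of the signal.

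The complete Pumilio response element, TGTANATA on the strand of the gene, was present in the longest annotated 3′ UTR of 1 of the 6 actin genes, and in that of 22.9% of 8987 protein-coding genes. That match, in Act87E, began 507 bases after the stop codon and lay 138 bases past the last cluster of the gene, so none of the 10953 reads listed for Act87E fell beyond it. It is shown with the element in capitals (plus strand).
Act87E, base 507, chr3R:13428229-13428258: tgcacatacataTGTACATAtgtggctggg

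The shorter core of the element, TGTANA, was found in 5 of the 6 genes and in 60.7% of protein-coding genes. These shares were not matched for length. The longest annotated 3′ UTR had 347 to 1571 bases in the actin genes, against a median of 316 in protein-coding genes. Act5C had 3 cores, at bases 310, 543 and 847. The ends in use split these sites among its transcripts, as 92.0% of its reads came from clusters beyond the first core, 81.2% beyond the second and 19.3% beyond the third. The long Act5C isoform thus held 3 cores and the leading isoform 2. Act57B had 2 cores, at bases 364 and 420, with 99.4% of its reads beyond both. Act42A had 1, at base 163, and Act88F had 1, at base 290, each with all reads beyond it. The core in Act87E was part of the complete element, past the last cluster of the gene, and Act79B had none. Whether any of these transcripts was recovered with Pum could not be measured from a sum over input and IP.

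Of the 23 actin clusters, 7 lay in a 3′ UTR away from any annotated end: 4 in Act5C and 1 each in Act57B, Act79B and Act87E. All 7 were followed by 5 or 6 A among the next 10 genome bases. Of the 16 actin clusters at annotated ends, 9 had 5 or more A there. The authors removed positions followed by 7 A among 10 or by 6 in a row, since the primer can anneal there. Among clusters of protein-coding genes that named 1 gene, 68.4% of 7024 elsewhere in a 3′ UTR had 5 or more A, against 43.6% of 15536 at annotated ends. Another 4 actin clusters met the removal criterion, with 7 or 8 A, and all lay within 18 bases of an annotated end, where the authors exempted positions. They were Act5C at bases 338 and 942, Act57B at base 507 and Act88F at base 366, with 225 to 996 reads each. The part of internal priming in these clusters was not tested.

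The actin genes are nearly identical in protein and less so in their ends. The 6 proteins translated from the reference all had 376 residues, of which 351 were the same in all. Act5C and Act42A differed at 2 residues and Act57B and Act87E at 3, while a cytoplasmic and a muscle actin differed at 12 to 18. Within the muscle class, Act79B and Act88F stood further from Act57B, at 13 and 10 residues. At 7 positions (77, 233, 235, 272, 279, 326 and 369, counted from the first methionine) the cytoplasmic pair shared 1 residue and the muscle genes another.

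Coding sequences did not follow that order. The most alike pair at the base level was Act57B and Act87E with 91.8% identity, but Act5C was closer to Act57B (91.0%) than to Act42A (86.2%), its partner in the cytoplasmic class. The longest identical coding run of any pair was 77 bases, between Act5C and Act87E. In the last 150 bases before the last base of the largest cluster, no pair shared a run of over 9 bases. The 75 bases before each of the 23 clusters occurred at 1 place in the genome, as did the last 30 (genome of the same build, main chromosomes).

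**Figure D3:**
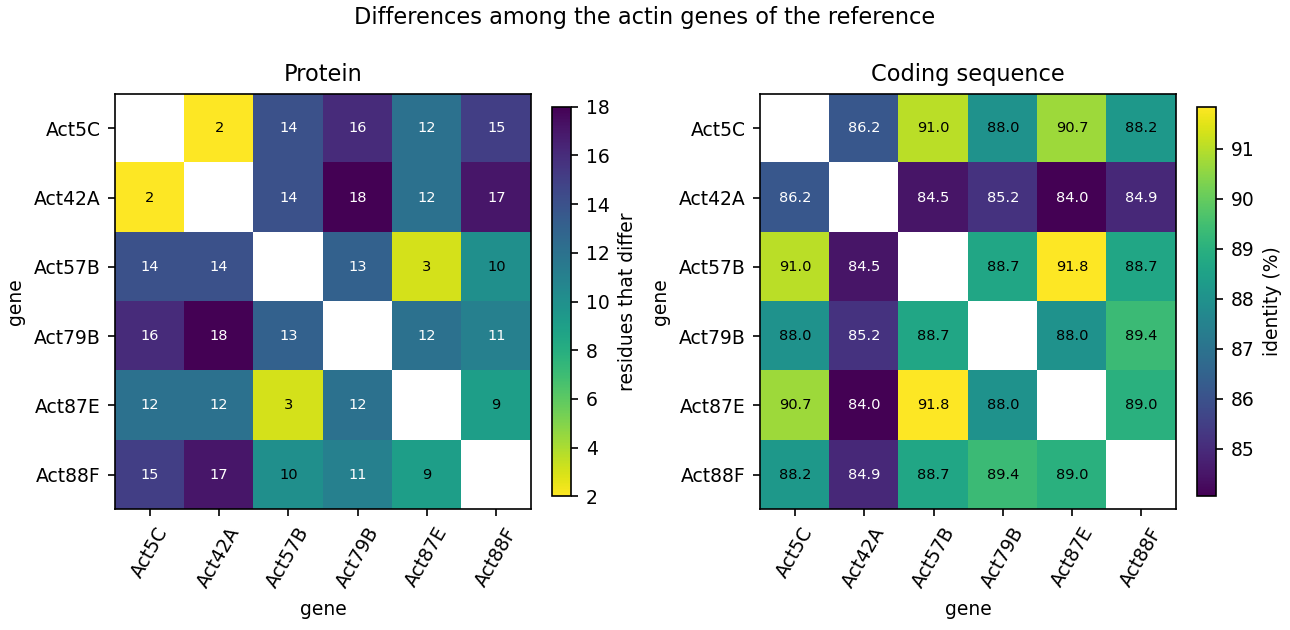
Pairwise differences among the 6 actin genes of the reference, as the number of protein residues that differ (left) and the identity of coding sequences in percent (right), with genes on both axes. The cytoplasmic pair Act5C and Act42A differ at 2 residues, yet their coding sequences are 86.2% identical, below the 91.0% of Act5C and Act57B.

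No gene of the annotation overlapped Act5C, Act42A, Act79B or Act88F. Beyond their 3′ ends the nearest gene was CG4020 on the same strand 347 bases past Act5C, and AdamTS-A on the opposite strand 69 bases past Act88F. Act87E overlapped lncRNA:CR45591 on the opposite strand at its 5′ side, and that gene named no cluster. All actin clusters apart from those of Act57B named a single gene.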

How the data were processed

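RNA from cross-linked adult heads was sequenced at transcript 3′ ends (QuantSeq 3′ REV libraries). The authors trimmed reads with fastp (version not given in the sources used here), mapped them with STAR 2.6.1b to dm6, removed positions followed by A stretches (6 in a row or 7 of 10) unless within 25 bases of an annotated 3′ end, kept signal up to 500 bases downstream of genes, called peaks from 6 reads upwards in 1 library, extended them by up to 15 bases, merged the results and counted again. Mapping limited the intron length and left other settings at their defaults. Whether reads with several map positions were counted is not given in the sources used here. The deposited values are raw counts per cluster. Their 12 columns carry no library name, so only their sum was used, and depth per library, replicate error and comparisons between IP and input are not reported here.

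Here, overlapping entries naming the same genes were joined, keeping the larger sum. That rule was set after nested entries were seen. List genes were matched by symbol, 1 through a synonym and 1 through an older identifier at the same position. Last bases of clusters were compared with Ensembl release 115 transcript ends on the same assembly (Python 3.11.15, scipy 1.17.1, Biopython 1.88). No model across genes was fitted. Wilson and exact Poisson 95% intervals were used, and all 10 self-tests on simulated data passed. Named were all members, the 3 genes with most reads per list, and the list gene closest to each member on the log2 scale. Members, markers and lists were chosen with earlier results of these data known. Alternatives covered the counting of entries, the distance to annotated ends, the joining of clusters, the minimum share, the poly(A) signal and the response element. Another 3 were chosen after seeing the data.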

Additional observations from a re-analysis of the deposited data

How the results depend on the processing

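Of 93 values under alternative settings, 73 stayed within the counting interval of the reported value or, for counts of ends, motifs and signals, within 1.5 times of it. Some of the 73 could not move, because the setting changed no cluster. A minimum of 60 reads and a limit to the 3′ UTR or downstream kept every actin cluster. Act42A had 1 cluster, at its annotated end. The 20 that moved are as follows. For Act57B, pooled reads were 25222 with every entry counted, 25222 with only entries at the very same position joined, and 0 with only entries that name 1 gene, since all its entries name snoRNA:660 too. The cytoplasmic share was then 37.3% with every entry and 62.0% with entries of 1 gene name. The setting that joined identical positions and these 2 for the share were chosen after seeing the data. With only clusters within 50 bases of annotated ends, Act5C had 20373 reads, Act79B 2655 and the cytoplasmic share was 44.2%; without clusters followed by A stretches it was 45.3%. Within 25 bases, the share at annotated ends was 88.2% for Act5C and 94.3% for all 6 genes, and within 100 bases it was 100% for Act87E. Ends in use were 2 for Act57B at a minimum of 0.1% and 1 for Act79B at 5%, and the leading end of Act87E held 99.4% with clusters joined up to 25 bases. The core element gave 3 matches in Act5C, 2 in Act57B, 1 in Act42A and 1 in Act88F, where the complete element gave 0. Up to the most distal cluster, Act87E had 0 complete elements in place of 1. Each of these moves follows from the entries, clusters or letters that the setting adds or removes.

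No paired analysis was possible because the count columns carry no library name, which also prevented leaving out single libraries. Counting error is the only error given, and a pooled sum over input and IP libraries cannot rank expression in heads or binding by Pum. Ends with few reads in every library are not listed.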
